A study of Mus musculus with 11 samples.

Results

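NMuMG cultures that carried a BRE reporter were compared with parental NMuMG cultures that carried no transgene. NMuMG is an epithelial cell line from normal mouse mammary gland of the NAMRU strain, and BRE stands for BMP response element, a DNA stretch bound by activated SMAD proteins that drives a reporter gene when BMP signalling is on. The comparison holds 4 of the 11 samples of the series, 2 reporter libraries and 2 parental libraries, chosen by their labels and numbered Bio 1 and Bio 2 in each group. All 4 cultures were grown in the same serum medium with no added ligand named in the labels, and total RNA was sequenced. The labels do not say whether the reporter line is 1 clone, and nothing in them says that Bio 1 and Bio 2 came from separate cultures. The p-values below therefore measure only the spread between the libraries in each fit. The E14 embryonic stem (ES) cells of the series, also with and without a BRE reporter, served as a second reporter comparison. Their libraries were part of the fit of the genes and of its estimate of the spread. The reporter transgene itself was not analysed here.

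BMPs are secreted ligands that bring together type I and type II receptor kinases, and the type I receptor then phosphorylates SMAD1 and SMAD5, which enter the nucleus with SMAD4 and switch on genes such as those of the Id family. NMuMG cells are a common model of epithelial cells that can lose their junctions and take on mesenchymal features in response to TGF-beta. A cell line carried through selection for a transgene can differ from its parent in the genes it expresses and in its chromosomes, and the comparison asks which differences between the reporter and parental line were found in both Bio numbers.

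The libraries were of similar content. Summed FPKM (fragments per kilobase of transcript, scaled to the library's mapped fragments) was 461180 and 444524 in the reporter libraries, and 454061 and 439384 in the parental libraries, with 10560 to 11049 entries at 1 FPKM or more. Read totals were not used here, so the depth behind a value is unknown and its precision is the spread between replicates. Symbols of micro RNAs and small nucleolar RNAs took 12.3% to 14.3% of the summed FPKM in the Bio 1 libraries and 5.48% to 5.66% in the Bio 2 libraries of both groups. Epithelial markers were mixed: the keratins Krt8, Krt18 and Krt19, which build the filaments of simple epithelium, were at 710 to 3089 FPKM and E-cadherin (Cdh1) at 150.3 to 194.8 FPKM in all 4 libraries. The claudins Cldn3 and Cldn7 were listed at 0, and the epithelial regulators Esrp1 and Grhl2 were under 0.04 FPKM, in all 4 libraries. Milk protein and hormone receptor genes of luminal mammary cells were at or near 0. Fibroblast markers summed to 7.68 and 6.01 FPKM in reporter and 6.69 and 5.99 FPKM in parental libraries, and endothelial markers to at most 0.386 FPKM in any library. Of the blood markers, Cd14 stood at 175 to 249.5 FPKM, while the pan-leukocyte gene Ptprc was at most 0.189 FPKM.

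A small set of genes was almost silent in the reporter cultures and expressed in the parental cultures. Of 12277 genes tested with limma on log2(FPKM + 1), 20 fell in reporter cultures (0.163%) and 6 rose (0.0489%), at an adjusted p under 0.05 with a change of at least 2-fold. In this fit 635 of the 12277 genes had an unadjusted p under 0.05 by limma, a limit that lets through a share of 0.05 if nothing differs. All 26 called genes also passed a second rule of 2-fold in the same direction within Bio 1 and within Bio 2. The call largely fixes this, because its log2 change is the mean of these 2 within-Bio ratios. That second rule, which needs no test, held for 123 lower genes (1.00%) and 22 higher genes (0.179%). When either reporter library was left out no gene was called, with 803 genes at an unadjusted p under 0.05 without reporter Bio 1 and 265 without reporter Bio 2. The lowest adjusted p by limma was then 0.0619 without reporter Bio 1 and 0.068 without reporter Bio 2. Without parental Bio 1 the calls were 49 lower and 13 higher, and without parental Bio 2 they were 17 lower and 2 higher. With the ES libraries left out of the fit the calls were 21 lower and 6 higher, but 17 of the 26 genes were among them. Of the 14 genes given below with a level above 0 in every library, 7 then kept their call: Serpinh1, Axl, Peg3, Tm4sf1, Gpm6b, Trp53i11 and Slpi.

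The gene with the greatest called fall was Serpinh1, the chaperone of the endoplasmic reticulum that binds newly made collagen. It stood at 0.339 and 0.396 FPKM in the reporter libraries, against 61.1 and 56.4 FPKM in the parental libraries. Both reporter libraries were far below both parental ones, and its change of -5.45 on the log2(FPKM + 1) scale (SE 0.19) had an adjusted p of 0.00295 by limma. Because a pseudocount of 1 was added, the log2 change understates the difference of genes near 0, and the parental mean of 58.8 ± 3.35 FPKM (SD, n = 2) was 160 times the reporter mean of 0.367 ± 0.04 FPKM (SD, n = 2). The gene lies at chr7:99345375-99353239 in the mm10 build.

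Axl, a receptor tyrosine kinase for the ligand GAS6, came next. It was at 0.488 and 0.413 FPKM in reporter libraries, against 28.0 and 27.4 FPKM in parental libraries, and fell by 4.31 on the log2 scale (SE 0.17, adjusted p 0.00295 by limma). Axl lies at chr7:25756500-25788733, far from Serpinh1 on the same chromosome. Its relative Tyro3 was at 0.94 and 1.42 FPKM in reporter libraries and 1.19 and 2.58 FPKM in parental libraries, and Mertk was at most 0.06 FPKM in all 4, so Axl was the member of this receptor family with a clear level in the parental line. In bulk RNA, fewer expressing cells and less RNA per cell cannot be told apart.

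**Figure D1:**
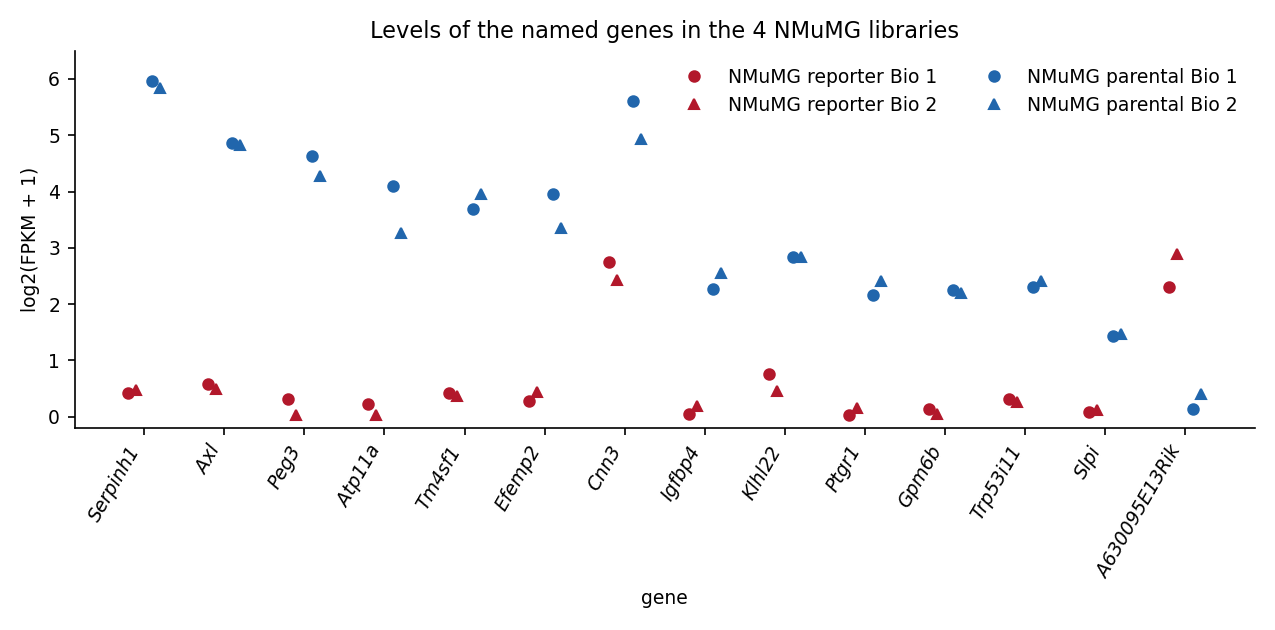
Level of each named gene, as log2(FPKM + 1), in the reporter libraries (red) and the parental libraries (blue), with circles for Bio 1 and triangles for Bio 2. For 13 genes both reporter points lie below both parental points, 12 of them under 1 on this axis in the reporter libraries, and A630095E13Rik is the 1 gene with the reverse order. The genes were named for a 2-fold change in both Bio numbers, which largely fixes this order.

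The promoters of 4 genes are shown because they fell together and because the study concerns a SMAD-driven reporter. These had the greatest called falls among genes above 0 in all 4 libraries that overlap no other entry and have a single listed start. Each line gives the 250 bases before the transcript start from RefSeq (GRCm38.p6), read 5′ to 3′ on the gene's strand. Capitals mark GGCGCC, an element bound by SMAD1 and SMAD5 (its own reverse complement), and CAGAC, an element bound by SMAD3 and SMAD4, or its reverse complement GTCTG. No other motif was searched and the matches do not overlap each other.
Serpinh1 (chr7:99353240-99353489, minus strand): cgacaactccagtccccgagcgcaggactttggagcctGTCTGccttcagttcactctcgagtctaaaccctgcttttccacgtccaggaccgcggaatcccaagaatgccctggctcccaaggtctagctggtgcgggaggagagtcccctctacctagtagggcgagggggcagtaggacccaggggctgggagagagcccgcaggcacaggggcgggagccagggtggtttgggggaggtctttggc
Axl (chr7:25788734-25788983, minus strand): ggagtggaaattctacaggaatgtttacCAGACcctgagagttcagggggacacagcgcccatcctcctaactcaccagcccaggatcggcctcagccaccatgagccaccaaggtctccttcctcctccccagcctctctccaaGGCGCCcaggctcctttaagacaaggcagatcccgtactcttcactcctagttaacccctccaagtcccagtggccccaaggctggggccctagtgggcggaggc
Tm4sf1 (chr3:57301989-57302238, minus strand): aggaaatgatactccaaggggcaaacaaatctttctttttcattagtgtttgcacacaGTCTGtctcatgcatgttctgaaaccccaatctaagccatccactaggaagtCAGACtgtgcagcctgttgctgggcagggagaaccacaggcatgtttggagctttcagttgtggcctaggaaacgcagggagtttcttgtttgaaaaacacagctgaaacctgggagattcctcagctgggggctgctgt
Cnn3 (chr3:121426291-121426540, plus strand): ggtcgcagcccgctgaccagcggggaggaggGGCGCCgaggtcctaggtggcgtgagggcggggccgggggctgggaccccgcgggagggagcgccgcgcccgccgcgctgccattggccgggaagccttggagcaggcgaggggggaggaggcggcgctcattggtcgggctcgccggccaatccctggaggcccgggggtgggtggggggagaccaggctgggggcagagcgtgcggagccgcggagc
GGCGCC occurs once before Axl and once before Cnn3 and is not in the windows of Serpinh1 and Tm4sf1. CAGAC occurs once before Serpinh1, once before Axl, 2 times before Tm4sf1 and is not in the window of Cnn3. Neither motif is rare: among 7184 tested genes with a single start in that table, 17.7% hold GGCGCC and 40.4% hold CAGAC on either strand. Among the 14 genes called lower that have such a start, 4 hold GGCGCC (28.6%) and 6 hold CAGAC (42.9%). The windows differ in base composition, with 28 CG pairs before Cnn3, 11 before Serpinh1, 5 before Axl and 1 before Tm4sf1, against a median of 17 in the tested genes. The 67 genes with such a start that were 2-fold lower within both Bio numbers had a median of 10.

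Among the other genes that fell, Tm4sf1 and Efemp2 were under 1 FPKM in reporter libraries and Cnn3 was not. Tm4sf1, a membrane protein of the tetraspanin-like L6 family, was at 0.341 and 0.297 FPKM in reporter libraries, against 11.8 and 14.6 FPKM in parental libraries (log2 change -3.42, SE 0.17, adjusted p 0.00443 by limma). Efemp2, the elastic fibre protein fibulin-4, was at 0.214 and 0.352 FPKM in reporter libraries, against 14.6 and 9.22 FPKM in parental libraries. Cnn3, a calponin that binds actin, kept a measurable level of 5.76 and 4.39 FPKM in reporter libraries, against 48.0 and 29.6 FPKM in parental libraries. Cnn3 was thus the 1 gene of the 13 named here that stayed above 1 FPKM after falling.

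Genes with other roles fell too, most of them by less. Peg3, an imprinted zinc finger gene expressed from the paternal allele, was at 0.242 and 0.023 FPKM in reporter libraries, against 23.6 and 18.3 FPKM in parental libraries. Atp11a, a phospholipid flippase of the plasma membrane, was at 0.17 and 0.0163 FPKM in reporter libraries, against 16.2 and 8.54 FPKM in parental libraries. Both overlap another entry of the annotation, where the quantifier has to divide reads, so their levels are less certain. The other named genes stood at 0.019 to 0.688 FPKM in reporter libraries, against 1.7 to 6.15 FPKM in parental libraries: Igfbp4, a binding protein of insulin-like growth factors, Klhl22, a substrate adaptor of a ubiquitin ligase, Ptgr1, a prostaglandin reductase, Gpm6b, a neuronal-type membrane glycoprotein, Trp53i11, a p53-inducible gene, and Slpi, a secreted inhibitor of serine proteases. Their log2 changes lay between -2.29 for Igfbp4 and -1.35 for Slpi, with adjusted p of 0.017 to 0.0471 by limma. In each of them both reporter libraries were below both parental ones, an order that the rule of naming largely fixes. Gpm6b and Slpi, like Axl and Tm4sf1, reached 1 FPKM only in the parental NMuMG libraries among those fitted, and so entered the test through these alone.

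The remaining 7 genes that fell were listed at 0 in at least 1 reporter library, and no fold is given for them. Hs6st2, which adds sulfate to heparan sulfate, was listed at 0 in both reporter libraries, against 7.8 and 7.06 FPKM in parental libraries. Khdrbs3, an RNA-binding regulator of splicing, was listed at 0 in reporter Bio 1 and at 0.0176 FPKM in reporter Bio 2, against 4.59 and 4.09 FPKM in parental libraries. Mal2, a membrane protein of transcytosis in polarised epithelium, was listed at 0 in both reporter libraries, against 2.42 and 2.79 FPKM in parental libraries. The other 4, Ctu2, 2210015D19Rik, Sumf2 and Ccdc159, overlap another entry, and their parental levels ran from 2.15 to 8.82 FPKM. Mal2 and Ccdc159 too reached 1 FPKM only in the parental NMuMG libraries among those fitted, and so entered the test through these alone. A value of 0 at an overlapping entry can come from the division of reads between entries.

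Of the 6 genes called higher, 5 were of that less certain kind. The gene A630095E13Rik was the only one of the 6 with a level above 0 in every NMuMG library, at 3.95 and 6.42 FPKM in reporter libraries, against 0.0986 and 0.33 FPKM in parental libraries (log2 change 2.33, SE 0.24, adjusted p 0.0471 by limma). Its call was lost with NMuMG libraries alone, without a filter on low values and after quantile normalization. The other 5, Snora34, 1110001A16Rik, Ccl27a, Pcdhgb5 and Ybey, were listed at 0 in both parental libraries and overlap another entry. A630095E13Rik, 1110001A16Rik, Pcdhgb5 and Ybey reached 1 FPKM only in the reporter NMuMG libraries among those fitted, and so entered the test through these alone. Of the 22 genes that were 2-fold higher within both Bio numbers, 13 overlap another entry (59.1%), as do 16 of the 123 lower genes (13%) and 17.6% of all genes tested. When overlapping entries and short RNA symbols were left out, a choice made after the data were seen, 1 higher and 14 lower genes were called.

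In ES cells with a BRE reporter, Serpinh1 was also lower, but by less and without passing the test. It was at 22.8 and 30.1 FPKM in ES reporter libraries, against 46.7 FPKM in the single ES parental library (log2 change -0.81, adjusted p 0.388 by limma). The NMuMG change minus the ES change was -4.64 on the log2 scale (SE 0.31, adjusted p 0.0486 by limma, just under the threshold). Axl was under 0.341 FPKM in all ES libraries, with and without the reporter, so a fall could not be seen there and its test of the difference (-4.24, SE 0.26, adjusted p 0.0486 by limma) says nothing about a response in ES cells. 1110001A16Rik, listed at 0 in all ES libraries, was the other one of 3 genes of 12277 that passed this test (0.0244%). Peg3 was at 4.33 and 3.94 FPKM in ES reporter libraries, against 10.4 FPKM in the ES parental library, and its difference between the lines did not pass the test (-3.12, SE 0.34, adjusted p 0.0888 by limma). The NIH3T3 parental fibroblasts expressed Serpinh1 and Axl above the level of parental NMuMG, at 284.9 FPKM for Serpinh1 and 204 FPKM for Axl. The ES comparison has 1 parental library, and without ES reporter replicate 1 or 2 the count of differing genes was 194 and 198, whereas it was 0 without NMuMG reporter Bio 1, reporter Bio 2 or parental Bio 2 and 5 without parental Bio 1.

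Agreement between Bio 1 and Bio 2 was limited outside these genes. Within Bio 1, 213 genes were 2-fold lower and 77 were 2-fold higher in the reporter library than in the parental library, and within Bio 2 the counts were 764 and 217. Libraries of 1 group differed from each other too: 421 genes were 2-fold lower and 131 2-fold higher in reporter Bio 2 than in reporter Bio 1. Among parental libraries these counts were 355 and 554. The 2 within-Bio log2 ratios had a Pearson correlation of 0.145 across the 12277 genes, which are not independent replicates.

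**Figure D2:**
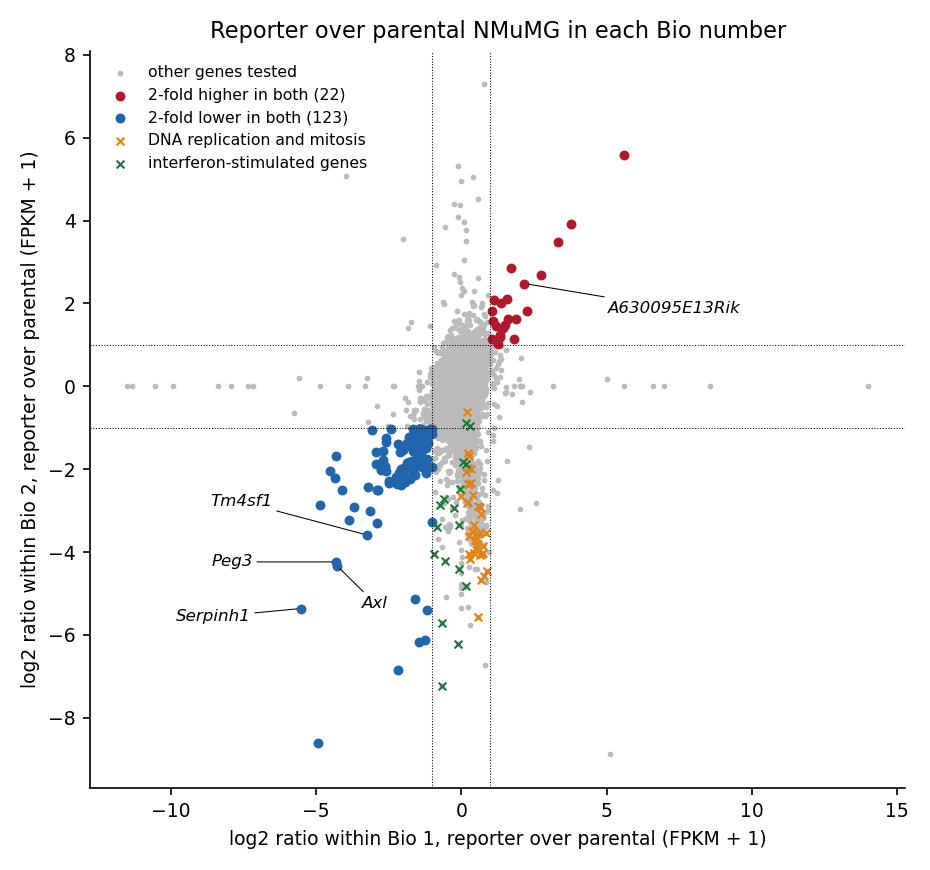
Log2 ratio of reporter over parental FPKM + 1 within Bio 1 (horizontal axis) and within Bio 2 (vertical axis), 1 point per gene tested, with dotted lines at 2-fold. The 123 blue and 22 red points pass 2-fold in one direction in both, replication and mitosis genes (orange) lie along the lower vertical axis, interferon-stimulated genes (green) do so too, and grey points far out along the horizontal line at 0 differ within Bio 1 alone.

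Among the 123 genes that were lower in both Bio numbers, 79 (64.2%) were under 1 FPKM in both reporter libraries, a share not counted over all genes tested. The median parental level of the 123 was 5.23 FPKM, with 41 at 10 FPKM or more. They lay on every chromosome, from 1 of 301 tested genes on chromosome 18 (0.332%) to 9 of 405 on the X chromosome (2.22%), while 8 of 959 on chromosome 7, which holds Serpinh1, Axl and Peg3, were among them (0.834%). Of the 123, 8 were also at least 2-fold lower in the mean of the ES reporter libraries (6.5%), against 2.93% of all genes tested, and 7 were at least 2-fold higher there. The share of all genes tested that were higher there was not counted, so no shared direction with ES cells can be read from these counts. The 22 higher genes had a median reporter level of 7.06 FPKM.

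Genes below were picked from this group after their values were seen, and none of them passed the adjusted test. Several encode secreted plasma proteins, but no list of such genes was counted. Gc, the vitamin D binding protein, was at 23.9 and 13.5 FPKM in reporter libraries, against 184.8 and 80.7 FPKM in parental libraries. The iron carrier transferrin (Trf) was at 0.645 and 1.69 FPKM in reporter libraries, against 27.4 and 14.3 FPKM in parental libraries, and complement C3 at 9.88 and 1.38 FPKM, against 99.3 and 11.9 FPKM in parental libraries. Hemopexin (Hpx), Ambp, Apoa1 and the alpha-1-antitrypsin paralogs Serpina1a to Serpina1d, among which reads can be shared, were lower in both as well. The parental libraries themselves differed widely here, with Lcn2 at 55.9 FPKM in parental Bio 1 and 4.71 FPKM in parental Bio 2, against 1.84 and 0.786 FPKM in reporter libraries. On the higher side, Igfbp3, another binding protein of insulin-like growth factors, was at 32.2 and 48.7 FPKM in reporter libraries, against 11.4 and 17.8 FPKM in parental libraries, and the membrane skeleton gene Add2 at 13.2 and 16.2 FPKM, against 4.92 and 7.44 FPKM.

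The wider gene groups to which Serpinh1 and Axl belong showed few other calls. Of 16 collagen and collagen-processing genes tested, Serpinh1 alone fell and none rose, with a median log2 change of -0.12, against -0.03 over all genes tested. Loxl2, a lysyl oxidase that crosslinks collagen, was 2-fold lower within both Bio numbers, at 3.38 and 2.78 FPKM in reporter libraries, against 9.07 and 15.0 FPKM in parental libraries (adjusted p 0.547 by limma). The basement membrane collagen Col4a1 was at 38.6 and 33.4 FPKM in reporter libraries, against 53.3 and 42.6 FPKM in parental libraries, while Col18a1 was at 119.3 and 139.3 FPKM, against 65.4 and 85.7 FPKM (adjusted p 0.710 by limma). The fibrillar collagens Col1a1, Col1a2 and Col3a1 were under 1 FPKM in all 4 libraries. Of 21 receptor tyrosine kinases tested, Axl fell and none rose. The kinases Fgfr4 and Ptk7 were also 2-fold lower within both Bio numbers, Ptk7 at 5.3 and 7.65 FPKM in reporter libraries, against 16.4 and 16.6 FPKM in parental libraries (adjusted p 0.388 by limma). Of 19 YAP and TEAD target and partner genes, Axl fell and none rose, with a median of -0.21.

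Of 27 epithelial genes tested none was called, but 9 of them averaged under 1 FPKM in NMuMG libraries. Over the 18 at 1 FPKM or more the median log2 change was 0.07, against -0.03 over all such genes. The desmosomal cadherin Dsg2 was the only one lower by 2-fold within both Bio numbers, at 8.88 and 4.94 FPKM in reporter libraries, against 21.9 and 15.6 FPKM in parental libraries. Of 21 tested genes linked to the epithelial to mesenchymal transition, Axl and Tm4sf1 fell and none rose, and Loxl2 was the third that was 2-fold lower within both Bio numbers. Their median was -0.05, and -0.14 over the 17 that averaged 1 FPKM or more. Vimentin (Vim) was at 490.4 and 720.3 FPKM in reporter libraries, against 396.5 and 680.5 FPKM in parental libraries, with overlapping groups. Tagln, an actin-binding gene of contractile cells, was listed at 0 in every library but parental Bio 1, where it reached 9.06 FPKM. Of 14 imprinted genes tested, Peg3 fell and none rose, but only 7 of them averaged 1 FPKM or more in NMuMG libraries. The p53 target list, 20 genes tested with none called, had medians of 0.29 within Bio 1 and 0.28 within Bio 2, and its member Cdkn1a, an inhibitor of cyclin-dependent kinases, was at 282 and 369.6 FPKM in reporter libraries, against 171.7 and 215.9 FPKM in parental libraries (adjusted p 0.808 by limma).

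No gene of the BMP pathway lists was called, and none passed 2-fold in one direction within both Bio numbers. Among the receptors that bind the ligand, the type I receptor Bmpr1a was at 15.1 and 13.97 FPKM in reporter libraries, against 18.6 and 17.0 FPKM in parental libraries (log2 change -0.28, SE 0.18), and Acvr1 was at 12.1 and 15.4 FPKM, against 11.7 and 10.6 FPKM. The type I receptors Bmpr1b and Acvrl1 were under 0.05 FPKM in all 4 libraries. The type II receptors lay close together in both groups. Bmpr2 was at 6.6 and 7.81 FPKM in reporter libraries, against 5.64 and 7.01 FPKM in parental libraries, and Acvr2a and Acvr2b had log2 changes of 0.10 and 0.13.

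The SMADs that carry the signal and the genes it switches on had small differences too. Smad1 was at 19.2 and 17.1 FPKM in reporter libraries, against 19.3 and 17.5 FPKM in parental libraries, and over the 9 SMAD and SMURF genes tested the median log2 change was -0.04. The target Id1 was at 132.2 and 176.8 FPKM in reporter libraries, against 139.6 and 191 FPKM in parental libraries, so it differed more between Bio numbers than between the groups. Id2 was lower in both reporter libraries, at 375.8 and 341.8 FPKM, against 428.7 and 442.2 FPKM in parental libraries (log2 change -0.28, SE 0.16). Over 11 BMP targets tested the median was -0.14, and among them Atoh8 was at 2.92 and 0.496 FPKM in reporter libraries, against 3.87 and 3.08 FPKM in parental libraries. These misses do not show that the lines respond alike, because no BMP-treated library is in the comparison.

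Extracellular members of the pathway varied more. The BMP-binding protein Twsg1 was at 89.8 and 74.2 FPKM in reporter libraries, against 57.5 and 49.4 FPKM in parental libraries, with no overlap between the groups (log2 change 0.61, SE 0.22, adjusted p 0.889 by limma). The activin subunit Inhbb was at 12.6 and 12.2 FPKM in reporter libraries, against 7.9 and 7.41 FPKM in parental libraries (log2 change 0.63, SE 0.18, adjusted p 0.679 by limma). Bmp4 was at 4.85 and 15.2 FPKM in reporter libraries, against 6.17 and 6.88 FPKM in parental libraries, so its direction differed between Bio 1 and Bio 2. Tgfb2 was lower within both, at 9.14 and 3.8 FPKM in reporter libraries, against 16.5 and 6.96 FPKM in parental libraries (adjusted p 1 by limma).

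Genes of DNA replication and mitosis went opposite ways in the 2 Bio numbers, and interferon and MHC genes were lower by far more within Bio 2 than within Bio 1. Of 37 genes of DNA replication and mitosis tested, none was called. Their median log2 ratio of reporter over parental was 0.44 within Bio 1, with 36 of 37 above 0, and -3.51 within Bio 2, with 36 of 37 at least 2-fold lower. Mki67, a marker of cycling cells, was at 16.8 and 0.955 FPKM in reporter libraries, against 10.3 and 31.6 FPKM in parental libraries. The mitotic cyclin Ccnb1 was at 14.9 and 1.11 FPKM in reporter libraries, against 10.1 and 30.1 FPKM in parental libraries. Averaged over these genes, log2(FPKM + 1) was 4.07 and 1.93 in reporter libraries, against 3.61 and 5.19 in parental libraries, so reporter Bio 2 was lowest and parental Bio 2 highest.

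Interferon-stimulated genes stood apart in 1 library, parental Bio 2. Isg15, a ubiquitin-like protein induced by interferon, was at 0.592 and 0.709 FPKM in reporter libraries, against 1.55 and 257.7 FPKM in parental libraries. Irf7, the transcription factor that sustains the response, was at 2.14 and 1.54 FPKM in reporter libraries, against 2.38 and 187.8 FPKM in parental libraries. The 29 genes listed summed to 106.6 and 106.9 FPKM in reporter libraries, against 120.9 and 2312 FPKM in parental libraries, and of the 18 that passed the filter 0 were called. Their median log2 ratio was -0.18 within Bio 1, with 5 of 18 above 0, and -3.38 within Bio 2, with none above 0. The genes of MHC class I and antigen processing had medians of -0.40 and -1.66, with sums of 551.6 and 504.6 FPKM in reporter libraries, against 650.1 and 1827 FPKM in parental libraries, and beta-2-microglobulin (B2m) at 280.1 and 265.2 FPKM, against 323.5 and 990.7 FPKM. The within-Bio 2 ratios therefore compare a reporter library low in proliferation genes with a parental library high in proliferation and interferon genes, and the part of this in any single result was not tested. Of these list members Rtp4, Psmb8 and Psmb9 did pass 2-fold within Bio 1 too, Psmb8 at 0.249 and 0.0878 FPKM in reporter libraries, against 2.79 and 37.0 FPKM in parental libraries.

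**Figure D3:**
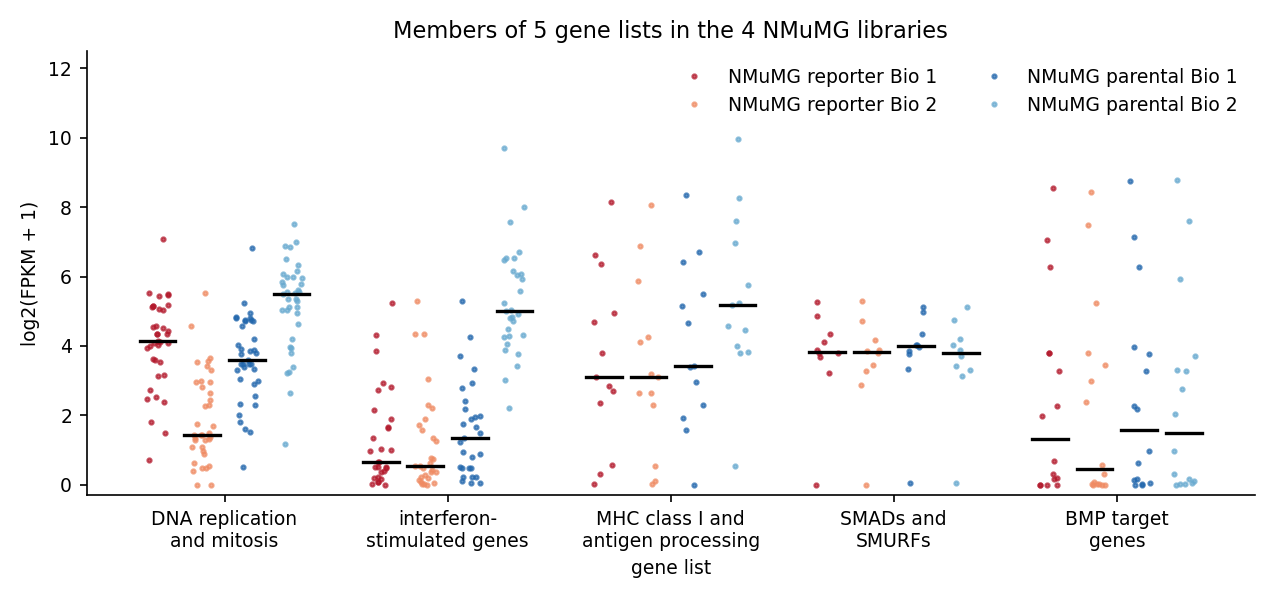
Level of each member of 5 gene lists, as log2(FPKM + 1), in reporter Bio 1, reporter Bio 2, parental Bio 1 and parental Bio 2 from left to right, with the median as a bar. The replication and mitosis list is low in reporter Bio 2 and high in parental Bio 2, the interferon and MHC lists are high in parental Bio 2, and the SMAD list is level across the 4 libraries.

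Genes of chromosome 15 stood higher and genes of chromosome 12 lower in the reporter cultures, in both Bio numbers. The question behind this comparison is whether the lines differ in chromosome copy number, but DNA was not measured, so the values are RNA levels only. Over 8551 genes with a mean of at least 5 FPKM, the median log2 ratio of reporter over parental was taken per chromosome and centred on the median of all genes. Chromosome 15 was higher by 0.28 within Bio 1 and 0.29 within Bio 2, a ratio of 1.21 and 1.22, over 379 genes. Chromosome 12 was lower, at -0.25 and -0.30, a ratio of 0.842 and 0.812, over 300 genes. These were the 2 of 20 chromosomes (10.0%) past 0.15 in both.

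The shift ran through most genes of these chromosomes. On chromosome 15, 90.0% of genes were above 0 within Bio 1 and 77.6% within Bio 2, and for 52.2% both reporter libraries were above both parental ones, against 14.2% of all genes. On chromosome 12, 60% of genes had both reporter libraries below both parental ones, against 18.1% of all genes. Abundant chromosome 15 genes showed it, such as Krt18 at 2428 and 3089 FPKM in reporter libraries, against 2017 and 2474 FPKM in parental libraries, Krt8 at 1698 and 1653 FPKM, against 1281 and 1392 FPKM, and the ribosomal protein gene Rpl8 at 1375 and 1946 FPKM, against 1058 and 1724 FPKM. Among the 3 most abundant genes of chromosome 12, Id2 and the ribosomal protein gene Rpl36al had centred ratios below 0 in both Bio numbers, and Rplp2-ps1, annotated as a ribosomal pseudogene, had 0.06 and 0.07. The BMP target Id2, with centred ratios of -0.18 and -0.35, thus lies on a chromosome whose median was -0.25 and -0.30.

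Chromosomes 10 and 14 came close. Chromosome 10 stood at 0.15 and 0.21, with the first value just under the limit of 0.15 before rounding, and chromosome 14 at -0.12 and -0.15. No other chromosome exceeded 0.0882 in size within Bio 1 or 0.111 within Bio 2. Between libraries of 1 group the medians moved less, by at most 0.0499 between reporter libraries and 0.0733 between parental libraries. In limma on the chromosome medians of the 4 libraries, 9 of 20 chromosomes had an adjusted p under 0.05 (45.0%), 4 higher and 5 lower. The changes were 0.28 for chromosome 15 and -0.28 for chromosome 12 (SE 0.0144, with 1 spread shared over all chromosomes, adjusted p 7.89e-21 by limma for each). That spread is pooled over 20 chromosomes that share the same 4 libraries and are not independent replicates. The p-values and the count of 9 therefore overstate what 2 libraries a side can show. The Bio 1 and Bio 2 medians had a Pearson correlation of 0.973 across the 20 chromosomes, which share the same 4 libraries.

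**Figure D4:**
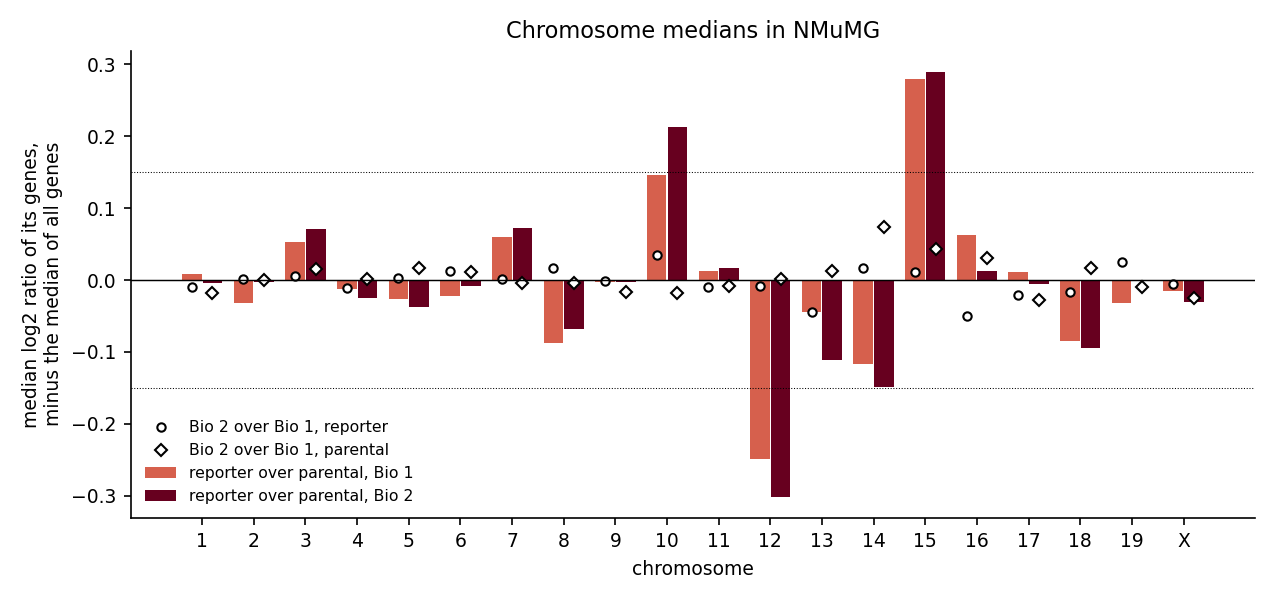
Median log2 ratio of reporter over parental per chromosome, centred on all genes, within Bio 1 (light bars) and within Bio 2 (dark bars), with Bio 2 over Bio 1 within the reporter group (circles) and within the parental group (diamonds) and dotted lines at 0.15. Chromosomes 15 and 12 pass the lines in both Bio numbers, and all symbols for libraries of 1 group lie within 0.0733 of 0.

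The shifts extended along the length of each chromosome. Genes were taken in locus order in windows of 50, with the last window of a chromosome allowed 25 to 74 genes. All 8 windows of chromosome 15 were above 0 in both Bio numbers, at 0.21 to 0.30 within Bio 1 and 0.23 to 0.34 within Bio 2. All 6 windows of chromosome 12 were below 0, at -0.31 to -0.22 within Bio 1 and -0.40 to -0.25 within Bio 2. All 9 windows of chromosome 10 were above 0 and all 5 of chromosome 14 below 0. Of 171 windows in all, 1 passed 0.3 in both Bio numbers, from Stk3 to E430025E21Rik on chromosome 15 (chr15:34875499-59374152), at 0.30 in each. Khdrbs3 and Mal2, which fell, lie on chromosome 15 and so went against its median.

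**Figure D5:**
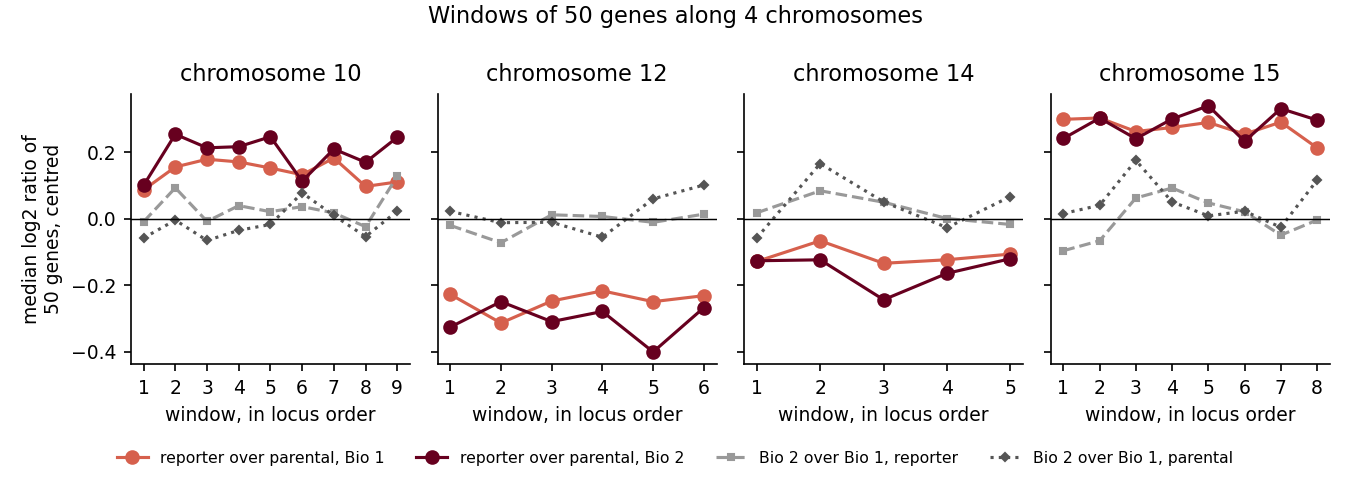
Median log2 ratio per window of 50 genes along chromosomes 10, 12, 14 and 15 in locus order, centred on all genes, for reporter over parental within Bio 1 (light) and Bio 2 (dark) and for Bio 2 over Bio 1 within each group (grey). The reporter over parental lines stay on one side of 0 along all 4 chromosomes, from -0.40 on chromosome 12 to 0.34 on chromosome 15, while the grey lines cross 0 on each of them.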

How the data were processed

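Total RNA of mouse cell lines was sequenced from RNeasy extracts and NEBNext Ultra libraries, per the labels' protocols. Base calling with bcl2fastq 1.8.4 and the tools TopHat and Cufflinks with the mm10 build are named in the submitters' processing notes. The deposited tables hold FPKM for 23849 entries per library, made by the authors, and carry the quantifier's interval, which was not used as an error.

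Values of entries that share a symbol were added up (23355 symbols, of which 260 had several entries), and 2 symbols with a failed status were left out. 2 NIH3T3 tables whose names could not be matched to a sample were not used. Groups followed the labels, and 2 technical runs of an ES reporter culture were averaged. limma 3.58.1 in R 4.3.3 was fitted, two-sided with a variance trend and Benjamini-Hochberg adjustment, on log2(FPKM + 1) of 7 replicates (NMuMG reporter 2, NMuMG parental 2, ES reporter 2, ES parental 1); a gene entered if 2 or more replicates reached 1 FPKM, and 3 residual degrees of freedom remained. A gene was called at an adjusted p under 0.05 and a fold of at least 2. Within each Bio number 1 library stands on each side, so those ratios have no test.

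Chromosome medians used genes of mean 5 FPKM or more, a limit of 0.15, and windows of 50 genes with a limit of 0.3. Named genes were Serpinh1, Axl, the 15 greatest called changes per direction that passed 2-fold in both Bio numbers with no 0, up to 10 with a 0, called list members, the 3 most abundant genes of shifted chromosomes and BMP genes. Each list was counted, with no set test. Members, lists and rules were chosen with earlier results of these data known. The fit was tested on simulated data, with changes placed only in genes of higher mean level, so genes of low level were not covered. Alternatives covered pseudocount, filter, scaling, libraries in the fit, replicate number, trend, fold limit and window size. Python 3.11.15, NumPy, pandas and matplotlib made tables and figures.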

Additional observations from a re-analysis of the deposited data

Results flagged for a closer look

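For 3 genes the reporter minus parental difference, called the effect here, was unlike in NMuMG and ES cells by limma's test of the difference, on the log2(FPKM + 1) scale. The term covers any difference between the lines, and the part of the transgene in it was not tested. The NMuMG effect minus the ES effect was -4.637 for Serpinh1, -4.241 for Axl and 3.403 for 1110001A16Rik, each with an adjusted p of 0.0486. Axl was at most 0.341 FPKM in every ES library. 1110001A16Rik is listed at 0 in both parental NMuMG libraries and in all ES libraries and overlaps another entry.

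For 4 gene lists the median log2 ratio of reporter over parental pointed one way within Bio 1 and the other way within Bio 2, a difference that was not tested. The DNA replication and mitosis list had -3.513 within Bio 2, against 0.4431 within Bio 1. The G1 cyclin and CDK inhibitor list had -0.2548 within Bio 2 and 0.1106 within Bio 1, sterol synthesis -0.1123 and 0.2187, and glycolysis and hypoxia 0.1111 and -0.1433.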

How the results depend on the processing

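The 14 named genes gave 190 checks, each of 1 gene in 1 setting, and 95 of these were no longer past the threshold. No direction was reversed, but the genes were chosen for a 2-fold change in both Bio numbers, which largely fixed this beforehand. With 2 libraries a side and 3 residual degrees of freedom, the counts of called genes (6 higher and 20 lower) depended on the setting. Higher and lower calls were 9 and 50 with a pseudocount of 0.1, 4 and 13 without a filter on low values, 3 and 13 at 5 FPKM or more, 3 and 7 after quantile normalization, and 1 and 14 without overlapping entries and short RNA symbols. Leaving out 1 library gave 0 to 13 higher and 0 to 49 lower calls. Counts stayed within 1.5 times with median-of-ratios scaling, without a variance trend and with NMuMG libraries alone, but the last kept only 17 of the 26 calls and 7 of the 14 named genes. The Bio numbers are shared by name only, and same-numbered deviations from the group means had a correlation of 0.275 across genes. With the replicate number as a block the calls were 2 higher and 6 lower, and 0 genes differed between NMuMG and ES. With the replicate block in NMuMG libraries alone limma gave 0 higher and 0 lower calls, with 875 of 12277 genes at an unadjusted p under 0.05. The genes whose reporter effect differed between NMuMG and ES, 3 in the fit reported, were 22 with a pseudocount of 0.1 and 0 to 198 when 1 library was left out.

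Genes 2-fold higher or lower within both Bio numbers (22 and 123) were 56 and 283 with a pseudocount of 0.1, 124 and 274 at 1.5-fold, 9 and 50 at 3-fold, and 12 and 70 at 5 FPKM or more, and 9 were higher without overlapping entries and short RNA symbols. Chromosomes 12 and 15 passed the limit in every alternative run, and chromosome 10 too with a pseudocount of 0.1. The single window past 0.3 became 2 at a mean of 20 FPKM or more and 2 with windows of 25 genes, and 0 with quantile normalization or windows of 100 genes. Of 139 list medians recomputed under another pseudocount or scaling, or over members that averaged 1 FPKM or more in NMuMG, all chosen after the data were seen, 105 moved within the spread of the Bio numbers and 34 by more. The cause of these changes was not tested. Read depth is unknown, so how far it limits genes near 0 is not known.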
